A study of Zea mays with 30 samples.

Results

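The transcripts of 3 maize genes that supply ADP-glucose were followed through seed germination. They were chosen by identifier, as 3 of the 39005 genes listed, and by no rule on measured values, although earlier results of these data were known. Zm00001d044129 is shrunken2 (Sh2), which encodes the large subunit of ADP-glucose pyrophosphorylase. Zm00001d050032 is brittle2 (Bt2), which encodes the small subunit of that enzyme. Zm00001d015746 is brittle1 (Bt1), which encodes the carrier that brings ADP-glucose into the amyloplast. All 3 passed the requirement of at least 1 read over all libraries, as did 34746 genes.

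ADP-glucose is the glucose donor from which starch synthases build starch. In the endosperm of the developing cereal grain most of it is made in the cytosol by a heterotetramer of Sh2 and Bt2 subunits, and the Bt1 protein then moves it across the inner envelope of the amyloplast, where starch is laid down. Kernels that lack a working copy of any of the 3 genes are low in starch, and their shrunken or brittle look gave the genes their names. In a germinating seed the flow runs the other way, since stored starch is broken down to feed the seedling, so these genes are known from grain filling rather than from germination.

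RNA came from pooled whole seeds of 2 inbred lines, the fast-germinating 72-3 and the slow-germinating F9721, germinated on wet filter paper after sterilization in dilute hydrogen peroxide and a rinse in water. Line 72-3 was sampled at 0, 6, 12 and 24 hours after imbibition (HAI) and F9721 for 36 and 48 HAI as well, with dry seeds as the 0 HAI samples. Each of these 10 groups had 3 libraries, and 30 libraries entered 1 fit. All groups are inbred seed, and the labels name no transgene and no treatment by which the groups differ. Each line is a single genotype, so a difference between them is a difference between these lines and not between fast and slow germination in general. The seeds were not dissected, and in such whole-seed RNA fewer cells of a type and less RNA per cell cannot be told apart. No list of embryo or endosperm markers was measured, because the tables give identifiers without names.

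The counts on genes summed to between 8080968 and 14192708 per library. Levels are given as CPM, the count relative to a library size scaled by edgeR's TMM method, per 1000000. The levels of Sh2 and Bt2 rest on few reads, 29 to 107 and 31 to 109 per library, and those of Bt1 on 0 to 659. Reads that fell outside annotated genes made up 5.59% to 20.9% of a library. A gene is said to pass the test at an adjusted p of at most 0.01 in edgeR's quasi-likelihood test, and to be a DEG where its absolute log2 fold change was also at least 2.

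The transcripts of the 2 subunits moved less than those of the carrier, which moved a great deal in F9721. The mean level of Bt1 ran from 0.343 CPM in 72-3 at 12 HAI to 45.4 CPM in F9721 at 36 HAI. This 132-fold range spans both lines, and its low end rests on libraries of 8, 0 and 5 reads. Within F9721 the means ran from 3.72 to 45.4 CPM. Bt1 rose there 11.1-fold from the dry seed by 36 HAI, and in 72-3 it stayed far below F9721 at each of the 4 shared times. Sh2 and Bt2 moved within narrower ranges, 2.48-fold and 2.15-fold between their highest and lowest group means. In F9721 at 48 HAI against dry seed, 47.2% of genes had a larger absolute log2 fold change than Sh2. For Bt2 that share was 66.4%, and for Bt1 it was 18.2%. Sh2 fell by the end of the F9721 course, and both subunit genes were lower in dry seeds of 72-3 than of F9721. Of the 23 comparisons made, Sh2 passed the test in 3, Bt2 in 3 and Bt1 in 9, and the 9 of Bt1 were all DEGs. These comparisons share groups, so the passes of a gene are not independent. The share of all genes that passed ran from 0.147% to 47.0% over the comparisons, and that of DEGs from 0.0777% to 21.6%. How many comparisons a typical gene passed was not counted.

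**Figure D1:**
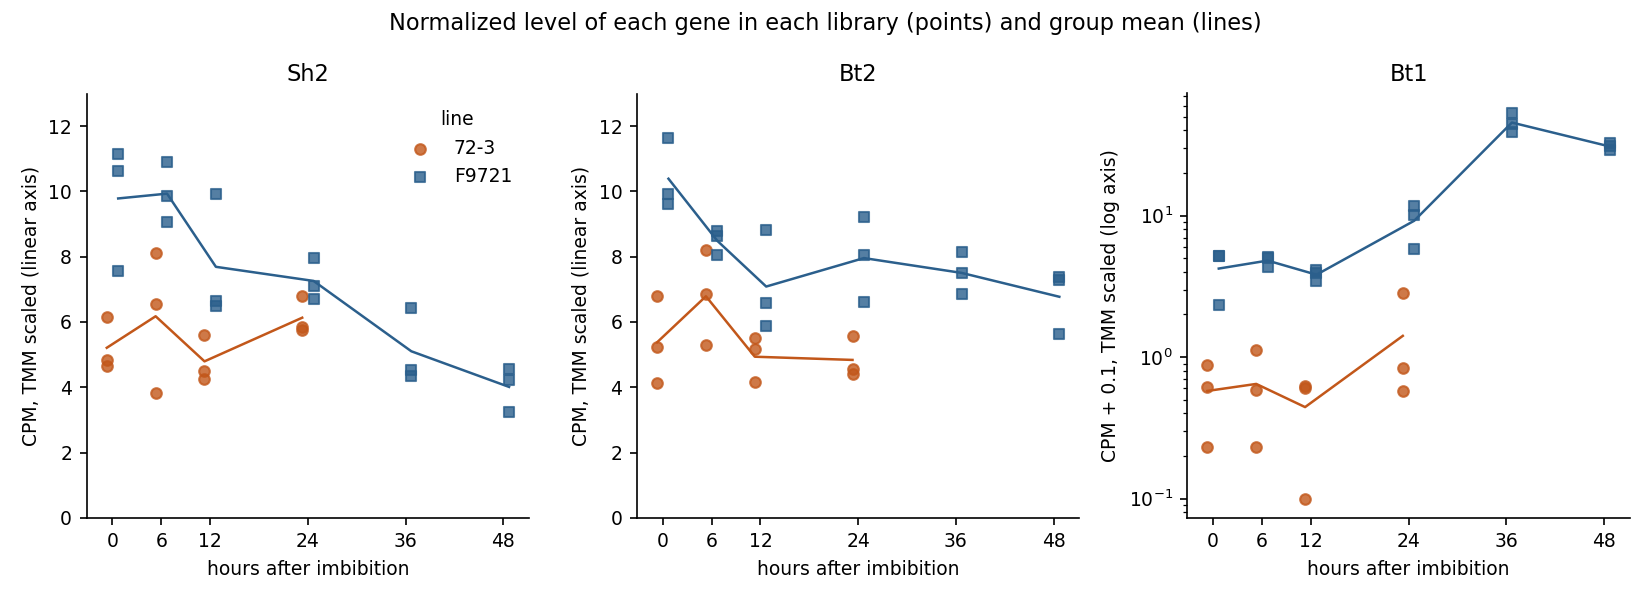
Level of Sh2, Bt2 and Bt1 in each of the 30 libraries against hours after imbibition, in TMM-scaled CPM (linear axis for Sh2 and Bt2, log axis with 0.1 CPM added for Bt1). Points are libraries, lines join group means, and colour and shape mark the line. The F9721 libraries at 36 HAI hold 38.8 to 53.2 CPM of Bt1, above every other group, and the lowest 72-3 library holds 0.

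None of the 3 genes passed the test against dry seed in 72-3 at any time. There 2.99%, 25.8% and 47.0% of all genes passed in either direction at 6, 12 and 24 HAI. With an unadjusted p under 0.05 the count was 0 of 3 at 6 and 12 HAI and 1 at 24 HAI (Bt1), and DESeq2 also called 0 at each time. The share of all genes at that p or under DESeq2 was not counted. In F9721 none passed at 6, 12 or 24 HAI, where 3.21%, 17.9% and 35.4% of genes did. The unadjusted count in that line was 0, then 1 (Bt2), then 1 (Bt1). DESeq2 called 1 member at those 3 times, Bt2 at 12 HAI (log2 fold change -0.66, adjusted p = 0.00506).

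Sh2, the large subunit, was at 11.2, 10.6 and 7.56 CPM in the 3 dry-seed libraries of F9721. At 6 HAI the libraries held 10.9, 9.86 and 9.05 CPM, at 12 HAI 6.49, 6.66 and 9.92 CPM, and at 24 HAI 6.71, 7.10 and 7.96 CPM. The last 2 time points were lower, with 4.52, 4.35 and 6.44 CPM at 36 HAI and 4.23, 3.25 and 4.56 CPM at 48 HAI. All libraries of those 2 times lay below all dry-seed libraries, while those of 6, 12 and 24 HAI overlapped the dry seeds.

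Against the dry seed, Sh2 in F9721 fell by 0.94 on the log2 scale at 36 HAI (SE 0.23, adjusted p = 0.00101), a 1.91-fold decrease. At 48 HAI it fell by 1.28 (SE 0.24, adjusted p = 2.79e-05), a 2.43-fold decrease. Neither change reached the size of a DEG. In these comparisons 20.0% of all genes tested were significantly lower at 36 HAI and 20.9% at 48 HAI, so a decrease was common. A more negative change than that of Sh2 was seen in a minority of genes, since 74.6% of genes had a higher log2 fold change at 36 HAI and 79.2% at 48 HAI.

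In 72-3 Sh2 was at 4.65, 4.83 and 6.15 CPM in dry seeds. It was at 8.13, 6.56 and 3.84 CPM at 6 HAI, at 5.61, 4.51 and 4.26 CPM at 12 HAI and at 5.76, 6.80 and 5.83 CPM at 24 HAI. The libraries of all later times overlapped the dry seeds, and the largest departure was a log2 fold change of 0.25 at 6 HAI (95% interval -0.25 to 0.76, adjusted p = 0.73). The widest spread within a group was at 6 HAI, where the lowest library, replicate 3, also had the largest share of reads outside genes, 20.9% against 12.2% and 11.7% in the other 2. The part of that share in the low Sh2 level was not tested.

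Bt2, the small subunit, was at 11.6, 9.93 and 9.60 CPM in the dry seeds of F9721. The later libraries held 8.62, 8.79 and 8.05 CPM at 6 HAI, 6.58, 5.87 and 8.81 CPM at 12 HAI and 6.62, 9.21 and 8.04 CPM at 24 HAI. They held 8.15, 7.50 and 6.86 CPM at 36 HAI and 7.38, 7.30 and 5.64 CPM at 48 HAI. Every library of the 5 later times lay below every dry-seed library, and the decrease did not pass the test at any of them. The share of all genes with such a separation was not counted.

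The fitted log2 fold changes of Bt2 in F9721 were -0.29 at 6 HAI, -0.55 at 12 HAI (adjusted p = 0.041) and -0.38 at 24 HAI. They were -0.47 at 36 HAI (SE 0.20, adjusted p = 0.052) and -0.62 at 48 HAI (SE 0.20, adjusted p = 0.0103). The value at 48 HAI sits just outside the threshold, and it moved inside it under DESeq2 (adjusted p = 0.00311), under DESeq2's size factors (adjusted p = 0.00692) and with edgeR's stricter filter on low counts (adjusted p = 0.00611). In 72-3 Bt2 was at 4.12, 5.22 and 6.79 CPM in dry seeds and at 5.31, 6.85 and 8.20 CPM at 6 HAI. It was at 5.16, 5.49 and 4.16 CPM at 12 HAI and at 4.40, 5.57 and 4.54 CPM at 24 HAI. All groups overlapped the dry seeds, and the fitted changes were 0.33, -0.12 and -0.16 with adjusted p from 0.54 to 0.78.

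The size of the change in the subunit genes depended on the scale, because the scales disagree on what the typical gene did. Over expressed genes, whose mean log2 CPM was not below 0, the median log2 ratio of F9721 at 48 HAI to dry seed was 0.14 on TMM-scaled CPM, 0.46 on CPM of total counts and 0.85 on TPM. On those 3 scales in turn, the log2 ratio of Sh2 was -1.29, -0.96 and -0.56, and that of Bt2 was -0.62, -0.29 and 0.09. Bt2 therefore changed sign on TPM, as it did at 36 HAI (-0.47 on TMM-scaled CPM and 0.28 on TPM). Measured against the median gene of the same scale, the values nearly coincided, at -1.43, -1.42 and -1.41 for Sh2 and -0.76, -0.75 and -0.76 for Bt2. The scales make this so, since they differ by a factor per library, which the median gene shares, and by a fixed length per gene. The 3 values are thus 1 result and not 3. At 36 HAI Sh2 was at -1.07, -1.06 and -1.04 relative to the median gene.

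Tested on log2(TPM + 1) with limma, the decrease of Sh2 did not pass at 36 HAI (log2 difference -0.11, adjusted p = 0.64) or at 48 HAI (-0.32, adjusted p = 0.078). With total counts in place of TMM it did not pass at 36 HAI (log2 fold change -0.64, adjusted p = 0.023). On log2(TPM + 1) Sh2 was instead higher in 72-3 at 24 HAI than in dry seed, by 0.50 (adjusted p = 0.00698). The added 1 makes that difference smaller at such low TPM. On TPM with nothing added, the log2 ratio of Sh2 was 0.88, and that of the median expressed gene was 0.78. Relative to the median expressed gene, Sh2 in F9721 was lower at 36 and 48 HAI by an amount that the choice among these scales cannot change much. This is a description with no test.

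**Figure D2:**
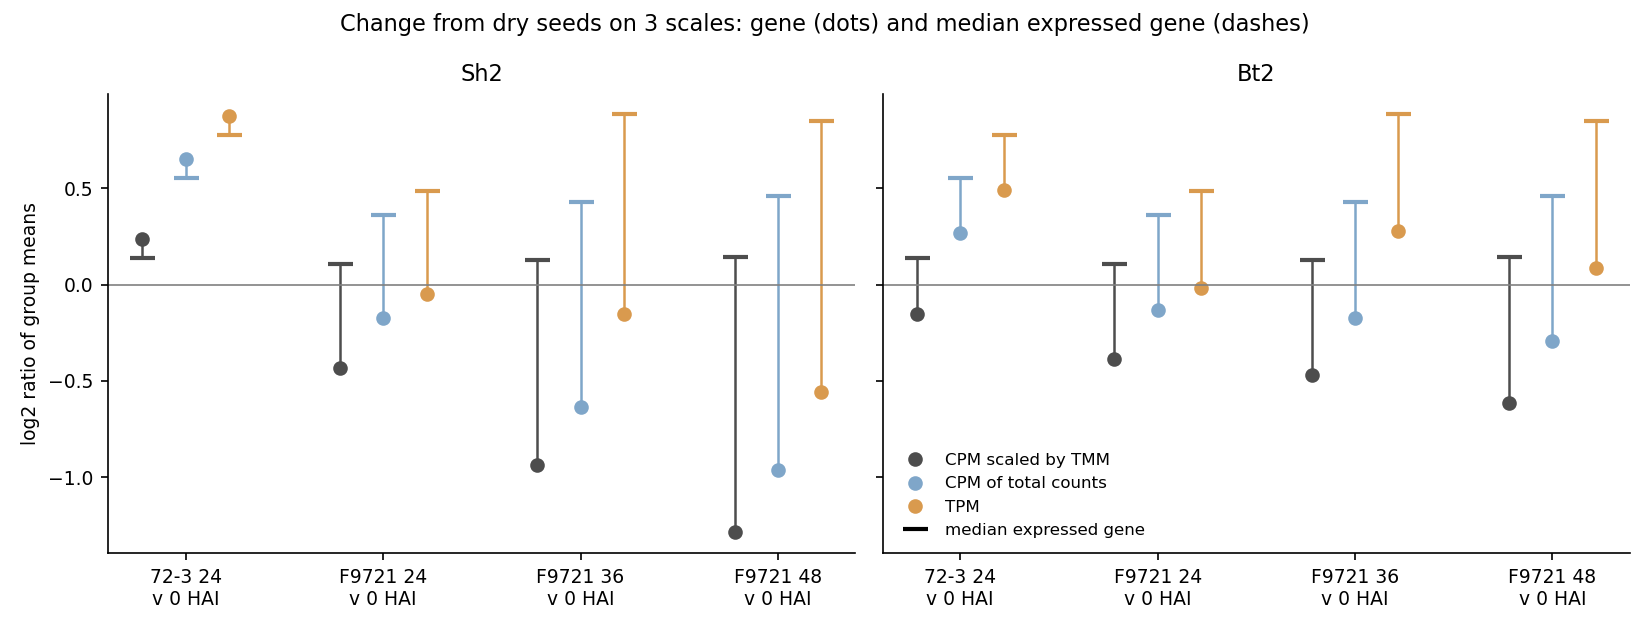
Log2 ratio of the group mean to that of dry seed (vertical axis) for Sh2 and Bt2 in 72-3 at 24 HAI and F9721 at 24, 36 and 48 HAI. Dots are the gene, dashes the median expressed gene, and colours the 3 scales. In F9721 at 48 HAI the dot of Sh2 moves from -1.29 to -0.56 between TMM-scaled CPM and TPM, and the dash moves with it from 0.14 to 0.85.

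Bt1, the ADP-glucose carrier, was at 5.04, 5.08 and 2.25 CPM in the dry seeds of F9721. It was little different at 6 HAI, with 4.99, 4.93 and 4.21 CPM, and at 12 HAI, with 4.0, 3.37 and 3.80 CPM. At 24 HAI the libraries held 9.93, 11.7 and 5.69 CPM, all above the dry seeds. At 36 HAI they reached 53.2, 44.1 and 38.8 CPM, from 659, 588 and 458 reads. At 48 HAI they held 32.3, 30.9 and 28.9 CPM, above every library of 24 HAI and below every library of 36 HAI.

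The log2 fold change of Bt1 in F9721 against dry seed was 3.47 at 36 HAI (SE 0.39, adjusted p = 4.76e-09) and 2.91 at 48 HAI (SE 0.38, adjusted p = 1.04e-07). These are 11.1-fold and 7.50-fold increases, and both were DEGs. At 36 HAI 23.4% of all genes passed the test as higher and 10.5% were DEGs with a higher level, while 5.90% had a larger positive log2 fold change than Bt1. At 48 HAI the corresponding shares were 25.1%, 12.8% and 10.5%. The increase at 24 HAI, 1.15 (SE 0.39, adjusted p = 0.0153), did not pass, and it passed on log2(TPM + 1) (adjusted p = 8.66e-04), with total counts (adjusted p = 0.00264) and without F9721 replicate 3 of that time (log2 fold change 1.40, adjusted p = 0.00615). Over the same course the median share of reads outside genes in F9721 went from 11.6% in dry seeds to 5.83% at 36 HAI, and its part in the rise of Bt1 was not tested.

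In 72-3 Bt1 was close to the limit of detection. The dry-seed libraries held 1, 6 and 4 reads, those of 6 HAI 9, 5 and 1 reads and those of 12 HAI 8, 0 and 5 reads. At 24 HAI replicate 1 held 44 reads, while the other 2 held 9 and 7. The library with 0 reads allows up to 0.246 CPM, if 3 reads are taken as the bound, which covers counting error alone. In CPM the dry seeds were at 0.133, 0.783 and 0.513, and the seeds of 24 HAI at 2.72, 0.737 and 0.475.

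The log2 fold change of Bt1 in 72-3 at 24 HAI was 1.48 (95% interval 0.12 to 2.85, adjusted p = 0.061). It rested on replicate 1, since it was 0.31 without that library (adjusted p = 0.81). At 6 and 12 HAI the fitted values were 0.23 (95% interval -1.47 to 1.92) and -0.45 (95% interval -2.20 to 1.30), intervals that include 2-fold changes in both directions at this depth.

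Between neighbouring times the only step that passed was the rise of Bt1 in F9721 from 24 to 36 HAI, with a log2 fold change of 2.32 (SE 0.35, adjusted p = 6.87e-06), 5.00-fold. Of all genes in that step, 7.59% passed as higher, 1.0% were DEGs with a higher level, and 2.37% had a larger positive change than Bt1. The following step from 36 to 48 HAI gave -0.56 (SE 0.33, adjusted p = 0.37), with libraries that did not overlap, and 3.34% of genes passed in either direction. None of the 3 genes had an unadjusted p under 0.05 in it, and DESeq2 called 0. The step of Bt1 from 12 to 24 HAI was 1.28 in F9721 (SE 0.38, adjusted p = 0.0123), where 14.9% of genes passed. In 72-3 that step was 1.94 (SE 0.63, adjusted p = 0.0128), where 33.0% of genes passed, and it was 0.76 without replicate 1 of 24 HAI (adjusted p = 0.41). DESeq2 called Bt1 in this step in F9721 (adjusted p = 0.00746) and in 72-3 (adjusted p = 0.00176). From 6 to 12 HAI none of the 3 genes passed in 72-3 or F9721, against 13.2% and 6.03% of all genes. In that step 1 member had an unadjusted p under 0.05, Bt2 in 72-3 (-0.45, adjusted p = 0.14), and DESeq2 called 0 in both lines.

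Between the lines, Bt1 was lower in 72-3 at all 4 shared times, and no library of 72-3 reached the lowest F9721 library of the same time. Its log2 fold change was -3.06 at 0 HAI (SE 0.60, adjusted p = 1.23e-04) and -3.04 at 6 HAI (SE 0.55, adjusted p = 4.26e-05). It was -3.38 at 12 HAI (SE 0.56, adjusted p = 1.20e-05) and -2.73 at 24 HAI (SE 0.42, adjusted p = 1.97e-06). These are differences of 8.37-fold, 8.23-fold, 10.4-fold and 6.63-fold, and each was a DEG. Leaving out each library in turn kept every one of them past the threshold. Their size moved with single libraries. Without replicate 1 of 72-3 the value was -3.77 at 6 HAI (adjusted p = 7.63e-05) and -3.90 at 24 HAI (adjusted p = 8.01e-09). In a fit of only the groups compared, the SE at 24 HAI was 0.56 in place of 0.42. The adjusted p was higher there but still past the threshold. At 0, 6 and 12 HAI both the SE and the adjusted p were lower in that fit.

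Few genes were as much lower in 72-3 as Bt1. Over the 4 times in order, lower DEGs made up 6.05%, 5.85%, 6.49% and 8.57% of genes, and 93.0%, 93.5%, 94.6% and 91.7% of genes had a higher log2 fold change than Bt1. The reads of both lines were aligned to the genome of another line, B73, so a lower transcript level and a poorer match of the 72-3 sequence to that genome cannot be told apart for any of the 3 genes. Over all reads, the paper lists a higher mapping rate for every 72-3 library than for any F9721 library. The match of either line at these 3 genes was not tested.

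Dry seed was the only shared time at which both subunit genes passed between the lines. At 0 HAI Sh2 was lower in 72-3 with a log2 fold change of -0.90 (SE 0.24, adjusted p = 0.00319) and Bt2 with -0.95 (SE 0.21, adjusted p = 5.66e-04), 1.87-fold and 1.93-fold differences. With Bt1, all 3 genes were lower in 72-3 at 0 HAI, where 13.7% of all genes passed as lower. The difference in Sh2 did not pass without replicate 1 of 72-3 (adjusted p = 0.0203), without replicate 2 of 72-3 (adjusted p = 0.0176), without replicate 1 of F9721 (adjusted p = 0.0207) or without replicate 2 of F9721 (adjusted p = 0.0158). It did not pass on log2(TPM + 1) either (adjusted p = 0.038), while that of Bt2 passed in each of these settings.

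At later times the fitted differences of the subunit genes were smaller, although the change in the difference did not pass for either gene in a test of line by time. At 6 HAI 1 of the 3 genes passed, Bt1, against 14.2% of genes that passed as lower, and at 12 HAI again 1, against 15.5%. Sh2 was at -0.67 at both times (adjusted p = 0.022 at 6 HAI and 0.021 at 12 HAI), with no overlap of the libraries. At 6 HAI it passed without replicate 1 of 72-3 (-0.91, adjusted p = 0.00647). At 24 HAI Bt2 was lower in 72-3 by a log2 fold change of -0.72 (SE 0.20, adjusted p = 0.00351), 1.65-fold, and Sh2 was at -0.25 (95% interval -0.71 to 0.22, adjusted p = 0.39). On TPM the log2 ratio of Sh2 at 24 HAI was 0.18, where the median expressed gene was at 0.43. Relative to that median Sh2 lay at -0.25 on TPM and, as the scales require, on both CPM scales. At 24 HAI 2 of the 3 genes passed, against 20.3% of genes.

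The Bt2 difference at 24 HAI did not pass with total counts (-0.57, adjusted p = 0.028), on log2(TPM + 1) (-0.21, adjusted p = 0.24) or in a fit of only the groups compared (adjusted p = 0.031). Nor did it pass without replicate 1 of 72-3 (adjusted p = 0.0150), replicate 3 of 72-3 (adjusted p = 0.0148), replicate 2 of F9721 (adjusted p = 0.0280) or replicate 3 of F9721 (adjusted p = 0.0111).

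**Figure D3:**
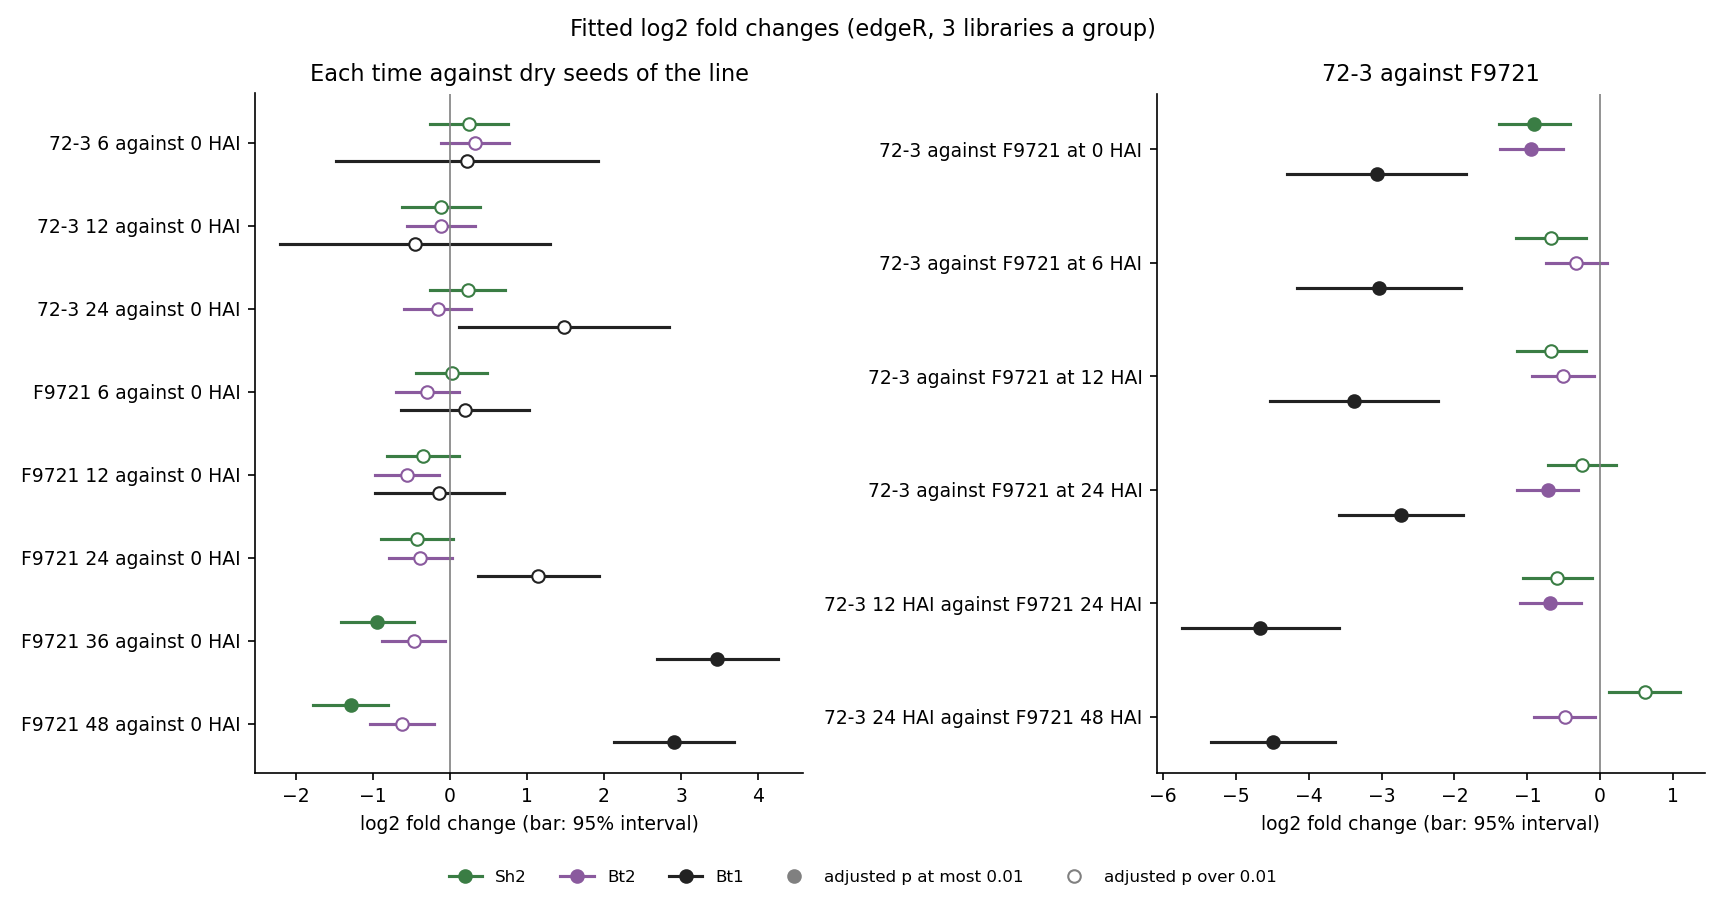
Fitted log2 fold change (horizontal axis) of Sh2, Bt2 and Bt1 for each time against the dry seed of the same line (left) and for 72-3 against F9721 (right), with 95% intervals as bars. Filled symbols have an adjusted p of at most 0.01. The values of Bt1 lie between -3.38 and -2.73 at the 4 shared times, and those of Sh2 and Bt2 between -0.95 and -0.25, all on TMM-scaled counts.

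Whether the change from dry seed differed between the lines was tested with a term for line by time. None of the 3 genes passed at 6, 12 or 24 HAI, where 0.147%, 3.20% and 20.5% of all genes did, and DESeq2 called 0 as well. At an unadjusted p under 0.05 the count was 1 at 6 HAI (Bt2, 0.62, adjusted p = 0.83) and 0 at both later times. For Bt1 the interval of the interaction at 24 HAI was wide, from -1.24 to 1.91 on the log2 scale, and its value went from 0.33 to -0.84 without replicate 1 of 72-3 at 24 HAI (adjusted p = 0.53). The large difference of Bt1 between the lines was thus already in the dry seed, and no change of it over the first 24 HAI was detectable at this depth.

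The lines reach radicle emergence at different hours, so 2 comparisons set them side by side at different times. Bt1 in 72-3 at 12 HAI was lower than in F9721 at 24 HAI, with a log2 fold change of -4.67 (SE 0.53, adjusted p = 1.47e-08), 25.4-fold. Bt2 was also lower there, at -0.68 (SE 0.20, adjusted p = 0.00738), so 2 of the 3 genes passed, against 16.3% of genes that passed as lower and 6.86% that were lower DEGs. The Bt2 call is fragile, because it was lost on leaving out any library of these groups except replicate 1 of F9721, with adjusted p from 0.0108 to 0.0496. It was also lost with total counts (adjusted p = 0.022), on log2(TPM + 1) (adjusted p = 0.039) and in a fit of only the groups compared (adjusted p = 0.0104).

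At the last sampled times, 72-3 at 24 HAI against F9721 at 48 HAI, Bt1 was at -4.49 (SE 0.42, adjusted p = 3.26e-10), 22.4-fold lower in 72-3. Without replicate 1 of 72-3 it was at -5.66 (adjusted p = 3.80e-12), and with each library left out in turn it ran from -5.66 to -4.08. It was the only one of the 3 to pass, against 13.5% of genes as lower and 5.92% as lower DEGs. Sh2 was the sole member with a positive value in these 6 comparisons of the lines, 0.61 (95% interval 0.13 to 1.09, adjusted p = 0.040), and its libraries did not overlap.

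The 10 groups were also put in order of their mean for each gene. Neighbours in such an order have close means by construction, which favours overlap. The overlaps are a description, and their share over all genes was not counted. For Sh2 the highest mean was that of F9721 at 6 HAI (9.93 CPM ± 0.92, SD, n = 3) and the lowest that of F9721 at 48 HAI (4.01 ± 0.68), and all 9 pairs of neighbours in the order overlapped. For Bt2 the highest was the dry seed of F9721 (10.4 CPM ± 1.09) and the lowest 72-3 at 24 HAI (4.84 ± 0.64), and 8 of 9 neighbouring pairs overlapped. The pair that did not overlap was the dry seed and 6 HAI of F9721. For Bt1 the order began with F9721 at 36 HAI (45.4 CPM ± 7.28), 48 HAI (30.7 ± 1.70) and 24 HAI (9.10 ± 3.08), each apart from the next. F9721 at 6, 0 and 12 HAI followed, where the dry seed overlapped both of the others but 6 and 12 HAI did not overlap, and the 4 groups of 72-3 came last, between 1.31 and 0.343 CPM. Of the 9 neighbouring pairs, 5 overlapped.

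Levels of different genes can be compared only per length, on TPM, and there with a limit. The deposited TPM values imply a gene length for Sh2 that is 4.55 times that of Bt1 and 1.66 times that of Bt2, and whether these lengths include introns is not given in the sources used here. On TPM the highest group means were 1.83 for Sh2 (72-3 at 24 HAI), 3.60 for Bt2 (F9721 at 36 HAI) and 59.4 for Bt1 (F9721 at 36 HAI). Bt1 then lay above 93.7% of the genes listed in level, against 41.0% in 72-3 at 12 HAI. Sh2 lay above 46.8% to 58.7% and Bt2 above 51.8% to 65.6% of genes over the 10 groups.

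The 2 subunits form 1 enzyme, so the ratio of their transcripts was followed within each library, where the scaling of the library drops out. The TPM ratio of Sh2 to Bt2 was 0.678, 0.556 and 0.544 in dry seeds of 72-3 and 0.576, 0.644 and 0.473 in those of F9721. In 72-3 at 24 HAI it was 0.787, 0.733 and 0.771, above all dry-seed libraries of the line. In F9721 it was 0.333, 0.348 and 0.564 at 36 HAI and 0.344, 0.267 and 0.486 at 48 HAI, which overlapped the dry seeds. The ratio was under 1 in all 30 libraries, a level that depends on the lengths behind the TPM, and the ratio of raw counts was 0.444 to 1.53.

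Over the 4 shared times the log2 ratio of Sh2 to Bt2 differed by -0.0036 between the lines (72-3 minus F9721), with means of -0.712 in 72-3 and -0.708 in F9721 over 12 libraries each. An exact two-sided permutation test of line labels within times gave p = 0.98 over 160000 arrangements. From dry seed the log2 ratio changed by 0.37 in 72-3 at 24 HAI (exact two-sided permutation p = 0.1, the smallest that 3 against 3 libraries allow). It changed by -0.47 in F9721 at 36 HAI and by -0.66 at 48 HAI (exact permutation p = 0.2 for each).

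The ratio of Bt1 to Bt2, with 0.1 TPM added to each because 1 library had no Bt1 read, differed strongly between the lines. Its mean log2 value over the shared times was -1.88 in 72-3 and 0.67 in F9721, a difference of -2.55 or 5.87-fold, and it was lower in 72-3 at 4 of 4 times. The exact two-sided permutation p was 1.25e-05 over 12 libraries a line, the smallest these arrangements allow, and 2.50e-05 when adjusted over the 2 ratios. It largely repeats the difference of Bt1 between the lines given above. The size depends on the added 0.1 TPM, since Bt1 was at 0, 0.115 and 0.117 TPM in the lowest 72-3 libraries. In F9721 the linear ratio went from 0.652 to 1.39 in dry seeds to 15.1 to 17.4 at 36 HAI and 11.3 to 13.6 at 48 HAI. The libraries at 36 HAI spread little, from 15.1 to 17.4, although their Bt1 CPM ran from 38.8 to 53.2.

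**Figure D4:**
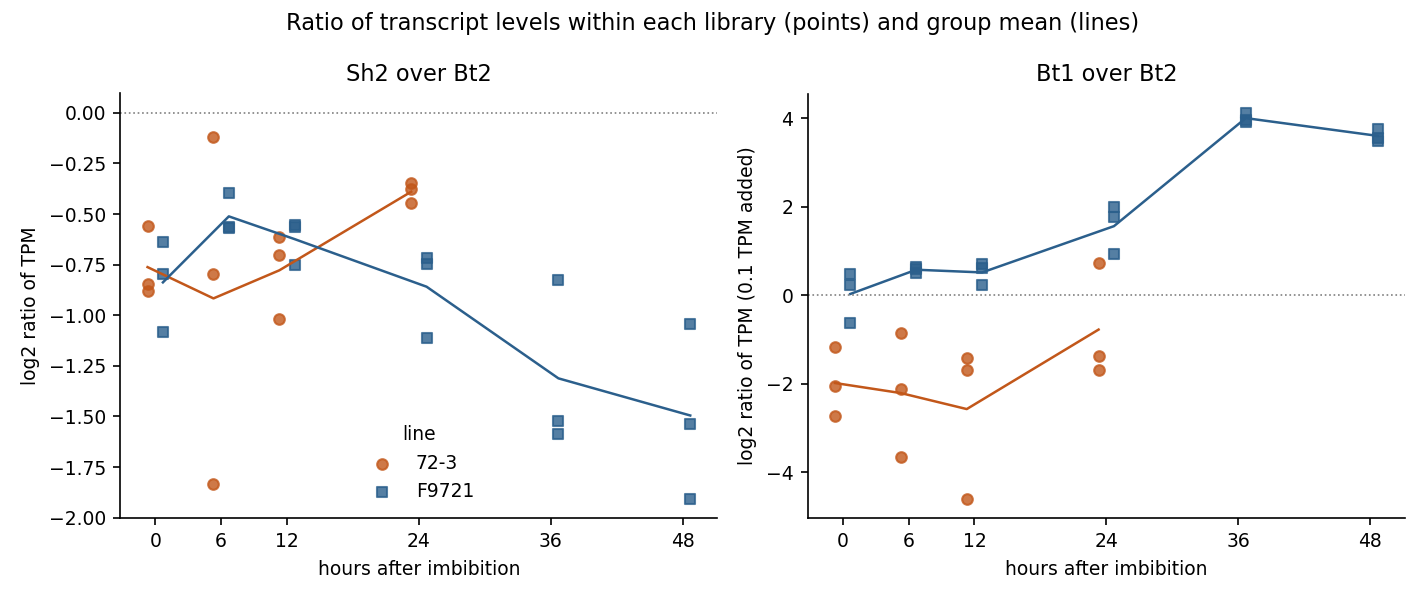
Log2 ratio of TPM within each library, for Sh2 over Bt2 (left) and Bt1 over Bt2 with 0.1 TPM added to each (right), against hours after imbibition. Points are libraries, lines join group means, and colour and shape mark the line. The ratio of the subunits has line means of -0.712 and -0.708 over the shared times, while that of Bt1 to Bt2 has -1.88 in 72-3 and 0.67 in F9721.

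Across the 30 libraries, on log2(CPM + 1), the subunits resembled each other in part (Pearson r = 0.52, Spearman rho = 0.49). Bt1 had r = -0.09 with Sh2 and 0.41 with Bt2. These points share lines, times and depth, and the values are descriptions only. Among the 22184 expressed genes the pattern most like that of Bt1 was that of Zm00001d046171 (r = 0.97), which was at 1.82 CPM in dry seeds of F9721, 15.2 at 36 HAI and 9.59 at 48 HAI and at 0.00 CPM in dry seeds of 72-3. Zm00001d027603 (r = 0.97) and Zm00001d006080 (r = 0.96) came next. Zm00001d006080 was well above 0 in both lines, with 11.7 CPM in dry seeds of 72-3 and 53.4 CPM in F9721 at 36 HAI.

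For Sh2 the most alike were Zm00001d034828, Zm00001d014140 and Zm00001d052379, with r of 0.84, 0.84 and 0.83. The first of them went from 15.9 CPM in dry seeds of F9721 to 3.82 CPM at 48 HAI. For Bt2 they were Zm00001d032168, Zm00001d047203 and Zm00001d013435, each with r of 0.82. No name or role is given here to these identifiers, because no source used pairs them with one.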

How the data were processed

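Whole seeds of 72-3 and F9721 were profiled by paired-end RNA sequencing, and groups follow the line and time named in the labels. The authors used fastp for trimming, HISAT2 for alignment to B73 RefGen_v4 and HTSeq for counting per gene, and the deposited counts are raw. They also deposited TPM values, whose gene lengths, like the strand setting of the counting, are not given in the sources used here. Tallies without a gene, 5.59% to 20.9% of reads outside genes and 1.60% to 2.11% in several genes, stayed out of library sizes and tests. The RefSeq gene table matched 0 of the 39005 identifiers, so names rest on the identifiers by which the 3 genes were chosen, and neighbouring starch genes and sequences were not analysed here. The members, the lists and the settings were chosen with earlier results of these data known.

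Counts of the 34746 genes with at least 1 read were scaled by TMM and fitted in edgeR 4.0.16 (R 4.3.3) as 10 group means over 30 libraries, with quasi-likelihood F tests adjusted by the Benjamini-Hochberg method over all genes tested. The 23 comparisons were each time against dry seed, each further step between neighbouring times, the lines at each shared time, their interaction with time, and 2 pairs of different hours in the 2 lines. Bounds are 95% intervals of the fit. The steps were tested on simulated counts with known changes. Replicates are those the labels number. The methods take them from different ears without tying a number to an ear, so p-values measure the spread between these samples. Replicates within each group were further apart than counting noise allows (lowest chi-square per gene 2.27, in dry seeds of 72-3). The highest value was 107.5, in 72-3 at 24 HAI, where the others were 54.9 and 28.07.

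Alternatives were DESeq2 1.42.0, its size factors in edgeR, edgeR's filterByExpr, a replicate block, a fit of only the groups compared, limma 3.58.1 on log2(TPM + 1), and each library left out in turn. Total counts in place of TMM and the comparison of scales were chosen after seeing the data. Ratios were tested with scipy 1.17.1. The genes named are the 3 members and, for each, the 3 genes with the highest Pearson r of log2(CPM + 1).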

Additional observations from a re-analysis of the deposited data

How the results depend on the processing

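Bt1 passed the test in each of its 9 comparisons in every setting tried, the fit on TPM and every library left out included, and no value past the threshold changed sign. The subunit genes rest on 29 to 109 reads a library. The values here are log2 fold changes that moved across the threshold, or differences of log2(TPM + 1) where TPM is named. The added 1 makes such a difference smaller at low TPM. For Sh2 in F9721 at 48 HAI it was -0.32, where the log2 ratio of TPM was -0.56. The cause of each move was not tested. Decreases of Bt2 in F9721 from dry seed passed under DESeq2 at 12 HAI (-0.66) and 48 HAI (-0.66), with DESeq2's size factors at 48 HAI (-0.66), with filterByExpr at 48 HAI (-0.62), and in a fit of only the groups compared at 12 HAI (-0.55) and 48 HAI (-0.68). Bt1 from 12 to 24 HAI passed under DESeq2 (2.01 in 72-3, 1.28 in F9721) and with total counts (2.01 and 1.49), and in F9721 also on TPM (1.37) and with only the groups compared (1.28). Bt1 in F9721 at 24 HAI against dry seed passed with total counts (1.40), on TPM (1.28) and with only the groups compared (1.11).

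On TPM Sh2 in 72-3 passed at 24 HAI against dry seed (0.50), and it no longer passed in F9721 at 36 HAI (-0.11) and 48 HAI (-0.32) or between dry seeds of the lines (-0.42). With total counts Sh2 at 36 HAI no longer passed (-0.64). The lower Bt2 of 72-3 at 24 HAI no longer passed on TPM (-0.21), with total counts (-0.57) or with only the groups compared (-0.76). Bt2 in 72-3 at 12 HAI against F9721 at 24 HAI no longer passed in the same settings (-0.39, -0.61 and -0.67).

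With each library left out in turn, calls changed for 7 results. Their ranges were -1.06 to -0.80 for Sh2 between the lines at 0 HAI, -0.91 to -0.44 for Sh2 at 6 HAI and -0.84 to -0.60 for Bt2 at 24 HAI. They were -0.80 to -0.57 for Bt2 in 72-3 at 12 HAI against F9721 at 24 HAI, and 0.84 to 1.40 for Bt1 in F9721 at 24 HAI against dry seed. For Bt1 from 12 to 24 HAI they were 0.76 to 2.51 in 72-3 and 1.06 to 1.54 in F9721, where the highest value came without replicate 3 of F9721 at 24 HAI and passed (adjusted p = 0.00661). The step in 72-3 passed without replicate 2 of 24 HAI (adjusted p = 0.00698) and without replicate 3 (adjusted p = 0.00205).

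Replicate numbers did not pair the samples in most comparisons: all 3 same-numbered pairs had a correlation over 0.1 in 1 of 20 comparisons, with a median of 0.02. That comparison was F9721 at 48 against 36 HAI, with correlations of 0.54, 0.66 and 0.86, although replicate 1 was not most alike its own number. With the replicate block Bt1 also passed in F9721 at 24 HAI against dry seed (1.15) and from 12 to 24 HAI in F9721 (1.26) and 72-3 (1.91), and no other call changed. The most alike gene of each member depended on the measure: the highest correlation was 0.84 for Sh2, 0.83 for Bt2 and 0.96 for Bt1 with a pseudocount of 0.1, and 0.84, 0.85 and 0.95 by rank, in each case with another gene.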
